A study of Mus musculus with 4 samples.

Results

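The vitamin B12 uptake genes described here are 8 genes chosen by name: Cubn, Amn, Lrp2, Dab2, Tcn2, Cd320, Mmachc and Mtr. All 8 were found among the 19938 genes that could be named on the arrays, and 7 of them were among the 12668 genes taken into account because their signal exceeded 50 on at least 1 array. Expression was measured in colon scrapings of male C57BL/6J mice, an inbred strain, which the study describes as mucosa with submucosa. The 4 groups were young mice of 4 months on a low-fat diet, young mice on a high-fat diet, old mice of 21 months on the low-fat diet and old mice on the high-fat diet. The diets were purified, held 10% (low-fat) or 45% (high-fat) of energy as fat, with palm oil in place of lard, and were given for 2 weeks after all mice had eaten the low-fat diet. RNA of the 6 mice of each young group or the 8 mice of each old group was pooled and hybridized to 1 Affymetrix Mouse Gene 1.0 ST array per group, so there were 4 arrays and no replicate of any group.

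Vitamin B12 from food is bound in the gut to intrinsic factor and taken up mainly in the distal small intestine, whereas the colon is not its main site of absorption. The receptor for the complex consists of cubilin, a large extracellular protein without a membrane anchor of its own, and amnionless, which anchors cubilin in the membrane. In kidney tubules cubilin also works beside megalin, and the adaptor DAB2 links such receptors to endocytosis. Transcobalamin then carries the vitamin in blood, CD320 takes this complex into cells, MMACHC processes the vitamin inside the cell and methionine synthase uses it to make methionine. The study compared the intestine of young and old mice in function, structure and gene expression, and named Cubn for its decrease on these arrays. The levels of Cubn with age are therefore given as a description, without a p-value.

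Signals are RMA values that the authors computed from the arrays, on the log2 scale unless called linear, and a difference of 1 on this scale is 2.0-fold. Signals of different genes cannot be ranked against each other, since each probe set has its own brightness. Depth has no meaning for an array, and the small number of arrays limits the precision. The median log2 signal of all probe sets lay between 6.12 and 6.20 on the 4 arrays. All 14 colonocyte markers and all 8 smooth muscle markers exceeded 50 on at least 1 array. A scraping mixes cell types, and with pooled RNA fewer cells that make a transcript and less transcript per cell cannot be told apart.

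The regions before the starts of Cubn and Amn are shown because their products form the receptor. Whether these sequences bear on the age differences was not tested. RefSeq start sites of GRCm38.p6 were found for 7 of the 8 genes, Tcn2 being the exception. The sequences run 250 bases up to the start, in the direction of the gene. Capitals mark matches, on either strand, to the 7 motifs spelled out after the sequences.
Cubn, chr2:13491877-13492126, minus strand: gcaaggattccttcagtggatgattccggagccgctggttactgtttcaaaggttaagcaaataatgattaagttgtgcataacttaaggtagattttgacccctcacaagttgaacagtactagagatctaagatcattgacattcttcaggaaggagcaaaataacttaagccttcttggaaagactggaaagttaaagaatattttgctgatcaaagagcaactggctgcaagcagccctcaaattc
Amn, chr12:111270846-111271095, plus strand: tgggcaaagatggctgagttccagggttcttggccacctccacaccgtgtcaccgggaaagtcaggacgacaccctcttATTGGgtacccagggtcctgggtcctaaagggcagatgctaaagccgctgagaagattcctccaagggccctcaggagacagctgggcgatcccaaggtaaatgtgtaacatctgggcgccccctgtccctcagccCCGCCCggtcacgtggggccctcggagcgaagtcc
No motif was found in the Cubn sequence, and no more than this follows from it. Its GC content was 39.6%, and 9.59% of 21262 such windows had a lower one. It held 2 CpG dinucleotides against 11 for Amn and a median of 10 over all windows. These traits were not particular to Cubn among the members. A window of Dab2 had a GC content of 36.8%, 2 CpG dinucleotides and no motif. The window of another Dab2 start had 60.0%, 17 CpG dinucleotides and 1 match to the HNF1 motif. The Amn window had a GC content of 61.2%, 1 match to the GC box and 1 to CCAAT, which did not overlap. The motifs and the shares of all windows that held them were GGGCGG for the GC box (42.6%), CCAAT (35.4%), GTTAAT for HNF1 (5.86%), GATAAG for GATA factors (6.25%), TTTATG for CDX factors (8.95%), AGGTCA for nuclear receptors (12.8%) and TATAAA for the TATA box (11.6%).

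Among the members, Cubn showed the largest difference with age. Its log2 signal was 8.14 (low-fat) and 8.56 (high-fat) in young mice and 7.08 (low-fat) and 7.25 (high-fat) in old mice, which are linear signals of 282, 378, 135 and 152. Both old arrays lay below both young arrays, an order found for 12.3% of all genes. The gap between the lower young and the higher old array was 0.89 on the log2 scale, and all 4 signals were well above 50. Old mice thus had 2.09-fold less Cubn signal on the low-fat diet and 2.48-fold less on the high-fat diet. Among all 12668 genes these were the 5th and the 10th lowest old minus young differences.

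**Figure D1:**
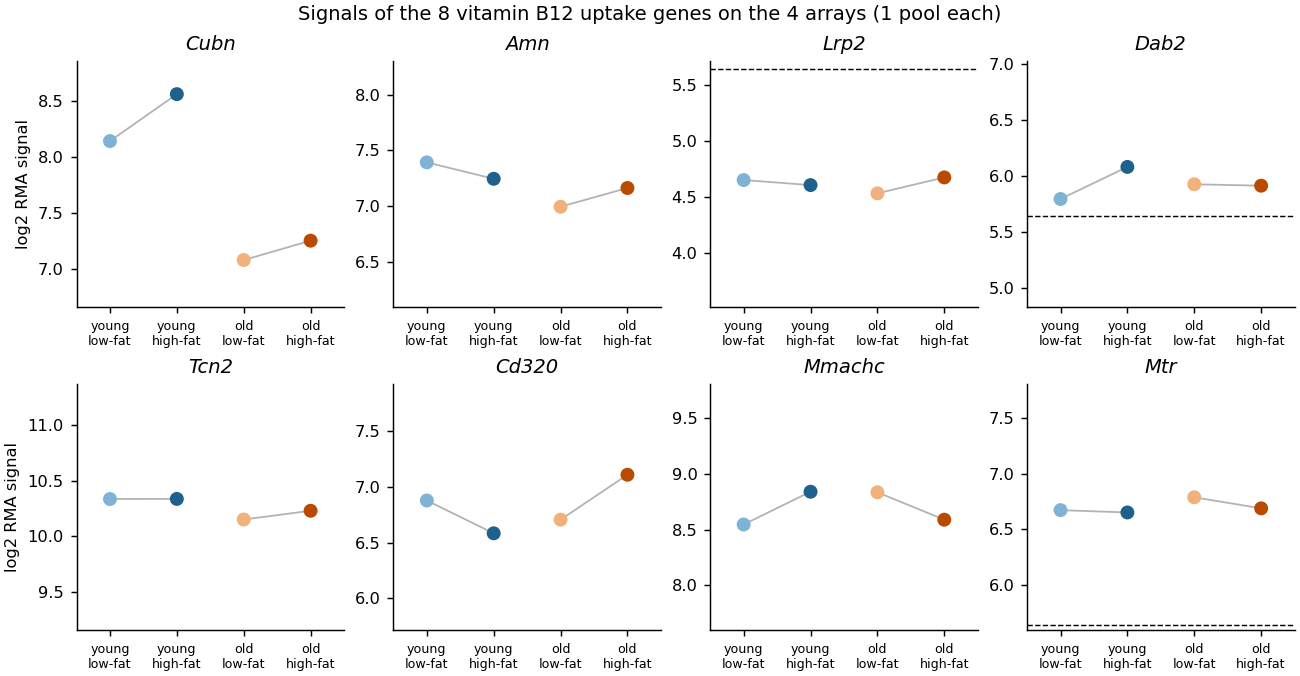
Log2 RMA signal (vertical axis) of the 8 genes on the 4 arrays, 1 point per array, with grey lines joining the diets of 1 age; every panel spans the same log2 range, a dashed line marks a signal of 50 in panels whose range includes it, and there are no error bars because each group had 1 array. Cubn drops from 8.14 and 8.56 on the young arrays to 7.08 and 7.25 on the old arrays, whereas the next widest range, that of Cd320, is 0.52.

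Of the 7 members above a signal of 50, 1 passed 2.0-fold lower with age on the low-fat diet and 1 on the high-fat diet, Cubn in each case, where 0.0553% and 0.174% of all genes did so. In either direction 0.426% (low-fat) and 0.663% (high-fat) of all genes passed 2.0-fold with age. Genes that passed 2.0-fold lower on both diets made up 0.0237% of those tested. Because Cubn was chosen for this decrease, nothing is read from these shares. When the diets were crossed, Cubn was 2.80-fold lower on the old low-fat than on the young high-fat array and 1.86-fold lower on the old high-fat than on the young low-fat array, so the last of the 4 possible pairs did not reach 2.0-fold. In a limma fit of age and diet as additive terms over all 4 arrays, the log2 change of Cubn with age was -1.19 ± 0.16 (SE, 2 old against 2 young pools). This estimate was -0.98 without the young high-fat array and -1.40 without the young low-fat array, in fits of age alone.

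The study also measured Cubn by quantitative PCR in individual mice, relative to Rplp0, a ribosomal protein gene used as reference. Those measurements were not analysed here. The study states that they too showed lower Cubn in the colon of old mice on either diet. From its arrays of the proximal and middle small intestine, the study describes a smaller decrease, without showing the data. On the colon arrays the log2 signal of Rplp0 was 13.31 and 12.99 in young and 13.24 and 13.28 in old mice on the low-fat and high-fat diet. The young high-fat array was thus the lowest, and a second Rplp0 probe set was lowest there as well (12.98 against 13.18 to 13.20). With each array set to its Rplp0 signal, the age differences of Cubn were -1.001 (low-fat) and -1.60 (high-fat). This scaling moved the median of all genes by 0.06 and -0.29 in these comparisons. With each array set to the mean of the colonocyte markers instead, the differences were -0.995 and -1.41, so that the decrease on the low-fat diet came just under 2.0-fold.

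**Figure D2:**
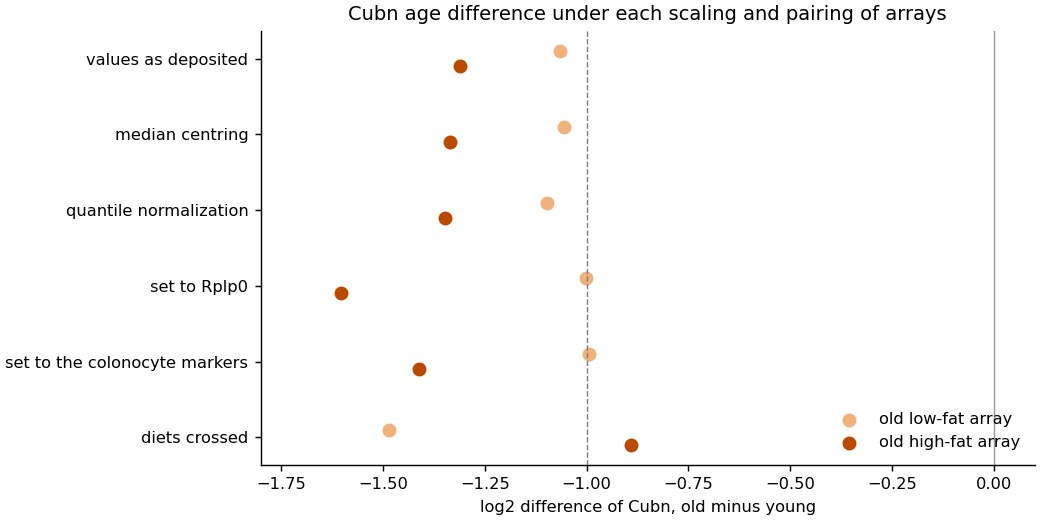
Log2 difference of Cubn, old minus young (horizontal axis), for the old low-fat (light) and old high-fat (dark) array under each scaling and with the diets of the young arrays crossed; the dashed line marks 2.0-fold. All points lie below 0, from -1.60 to -0.89.

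Cubn was also higher on the high-fat than on the low-fat array at both ages, by 1.34-fold in young and 1.13-fold in old mice. Neither difference reached 2.0-fold, which 0.118% (young) and 0.103% (old) of all genes did in either direction. By size, the difference in young mice was the 776th among all genes. The additive fit gave a diet change of 0.30 ± 0.16 (SE), with a 95% interval from -0.06 to 0.65 and an adjusted p of 1.0 by limma with Benjamini-Hochberg correction over all genes. With arrays set to Rplp0 the diet difference in young mice was 0.74 in place of 0.42.

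Amn, whose product amnionless anchors cubilin, had log2 signals of 7.39 (low-fat) and 7.25 (high-fat) in young mice and 6.996 (low-fat) and 7.16 (high-fat) in old mice. Both old arrays lay below both young arrays, an order found for 12.3% of all genes, and the gap was 0.08. The signal was 1.32-fold lower in old mice with low-fat and 1.06-fold lower with high-fat feeding. The age change in the fit was -0.24 ± 0.16 (SE, adjusted p = 1.0, limma), with a 95% interval from -0.60 to 0.12. Whether the changes of Amn and Cubn differ was not tested. Over the 4 arrays, each gene centred on its mean, Amn stood 561st among the genes ordered by the distance of their pattern from that of Cubn, at 1.03 where the median gene was at 1.26. Genes were not scaled by their spread, so the wide range of Cubn sets much of this distance. The rank therefore says little about likeness.

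Lrp2, which encodes megalin, had log2 signals of 4.65, 4.61, 4.53 and 4.68 in young mice (low-fat, high-fat) and old mice (low-fat, high-fat). Its highest linear signal was 25.6, below 50 on each array, so it did not enter the comparisons. Other genes typical of kidney tubules were also dim, with 2 of 6 above 50 and Slc12a1, a salt carrier of the kidney, no higher than 16.5.

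Dab2, the endocytic adaptor, was just above the limit, with linear signals of 55.5, 67.7, 60.8 and 60.3 in young mice (low-fat, high-fat) and old mice (low-fat, high-fat). The old values lay between the young ones. Its age change was -0.02 ± 0.16 (SE, adjusted p = 1.0, limma), with a 95% interval from -0.38 to 0.34. A second Dab2 probe set did not exceed a log2 signal of 3.49 and is not used.

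Tcn2, the gene of the blood carrier transcobalamin, varied little. Its log2 signals were 10.33 (low-fat) and 10.34 (high-fat) in young mice and 10.15 (low-fat) and 10.23 (high-fat) in old mice. Both old arrays were below both young arrays, as for 12.3% of all genes, with a gap of 0.105. The age change was -0.14 ± 0.16 (SE, adjusted p = 1.0, limma), with a 95% interval from -0.49 to 0.20.

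Cd320, the cellular receptor for transcobalamin with its vitamin, had age differences of opposite sign on the diets, as 60.7% of all genes did, and diet differences of opposite sign at the ages, as 64.2% did. Its log2 signals were 6.88 (low-fat) and 6.58 (high-fat) in young mice and 6.71 (low-fat) and 7.11 (high-fat) in old mice, so the old high-fat array was the highest and the young high-fat array the lowest. The old minus young difference was -0.17 with low-fat and 0.52 with high-fat feeding. The contrast between them, 0.70, could not be tested, as the fit treats it as error; 6.08% of all genes had a larger one in size. Averaged over the diets, the age change was 0.18 ± 0.19 (SE, adjusted p = 1.0, limma; 95% interval -0.25 to 0.60).

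Mmachc, which encodes the protein that receives the vitamin inside the cell, also had age and diet differences of opposite sign. Its log2 signals were 8.55 (low-fat) and 8.84 (high-fat) in young mice and 8.83 (low-fat) and 8.59 (high-fat) in old mice. The young low-fat and old high-fat arrays were alike, as were the young high-fat and old low-fat arrays. Its age differences were 0.29 (low-fat) and -0.25 (high-fat), a contrast of -0.54 that 13.5% of all genes exceeded in size. The age change over both diets was 0.02 ± 0.18 (SE, adjusted p = 1.0, limma; 95% interval -0.38 to 0.41).

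Mtr, the gene of methionine synthase, had the smallest range of the 7 members above a signal of 50. Its log2 signals were 6.67 (low-fat) and 6.65 (high-fat) in young mice and 6.79 (low-fat) and 6.69 (high-fat) in old mice. Both old arrays were above both young arrays, as for 16.1% of all genes, and the age change was 0.08 ± 0.16 (SE, adjusted p = 1.0, limma; 95% interval -0.27 to 0.42).

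Together, 0 of the 6 members other than Cubn that were above a signal of 50 changed with age in the additive limma fit, in which 0.395% of all genes did, and 0 of them had an unadjusted p under 0.05, as 3.69% of all genes had. For diet the counts were again 0 and 0, beside 0.0% and 0.718% of all genes. Their median age difference was -0.03 with low-fat and -0.09 with high-fat feeding, against 0.005 and 0.015 for all genes. No member passed 2.0-fold in either comparison of the diets.

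Genes that act further along the B12 route showed small age differences. The list of intracellular processing, which also held the gene of intrinsic factor, a protein that acts before uptake, had 14 measured genes. Of these, 13 were above a signal of 50. In old mice 9 were higher and 4 lower on the low-fat diet (median 0.08), and 6 higher and 7 lower on the high-fat diet (median -0.00). No gene of this list passed 2.0-fold or the limma fit. The largest mean age differences were those of Pcca, a subunit of the carboxylase upstream of the B12-dependent mutase (0.04 on low-fat, 0.39 on high-fat), Mmadhc, the partner of MMACHC (0.08 and -0.34), and Mmab, which makes the adenosyl form of the vitamin (-0.41 and 0.15). Mmut, the B12-dependent mutase itself, had differences of 0.20 and -0.05. The gene of intrinsic factor, Cblif, was below 50 on each array with a highest signal of 26.9.

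Of 10 genes of the methionine and folate cycles above a signal of 50, 7 were higher in old mice with low-fat and 6 with high-fat feeding, with medians of 0.09 and 0.03 and none past 2.0-fold or the fit. Tyms, the thymidylate synthase gene, had age differences of 0.45 and -0.01, Shmt2, the mitochondrial serine hydroxymethyltransferase gene, 0.09 and 0.34, and Bhmt, which remethylates homocysteine without B12, 0.09 and -0.39.

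The machinery that internalizes receptors was measured with 16 genes, all above a signal of 50. On the low-fat diet 8 were higher and 8 lower in old mice, on the high-fat diet 9 and 7, with medians of -0.02 and 0.04. Ehd1, which acts in recycling of endosomes, had age differences of 0.03 and 0.35, Ap2s1, a subunit of the clathrin adaptor, 0.06 and -0.34, and Clcn5, a chloride carrier of endosomes, -0.05 and -0.19. Lrpap1, the chaperone of megalin, had differences of -0.07 and 0.18.

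Carriers and related genes of other vitamins numbered 12 above a signal of 50, of which 8 were higher in old mice with low-fat and 7 with high-fat feeding, with medians of 0.06 and 0.05. Slc5a6, the carrier of biotin and pantothenate, had age differences of 0.05 and 0.59, Scarb1, a lipoprotein receptor, 0.14 and 0.39, and Slc46a1, the intestinal folate carrier, 0.09 and 0.38. Over these 4 lists, 0 of 51 genes changed with age or diet in the limma fit, 0 had an unadjusted p under 0.05 for age, and 0 passed 2.0-fold in any of the 4 comparisons. With 0.395% of all genes called for age and 3.69% at an unadjusted p under 0.05, counts of 0 among so few genes are near the background.

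**Figure D3:**
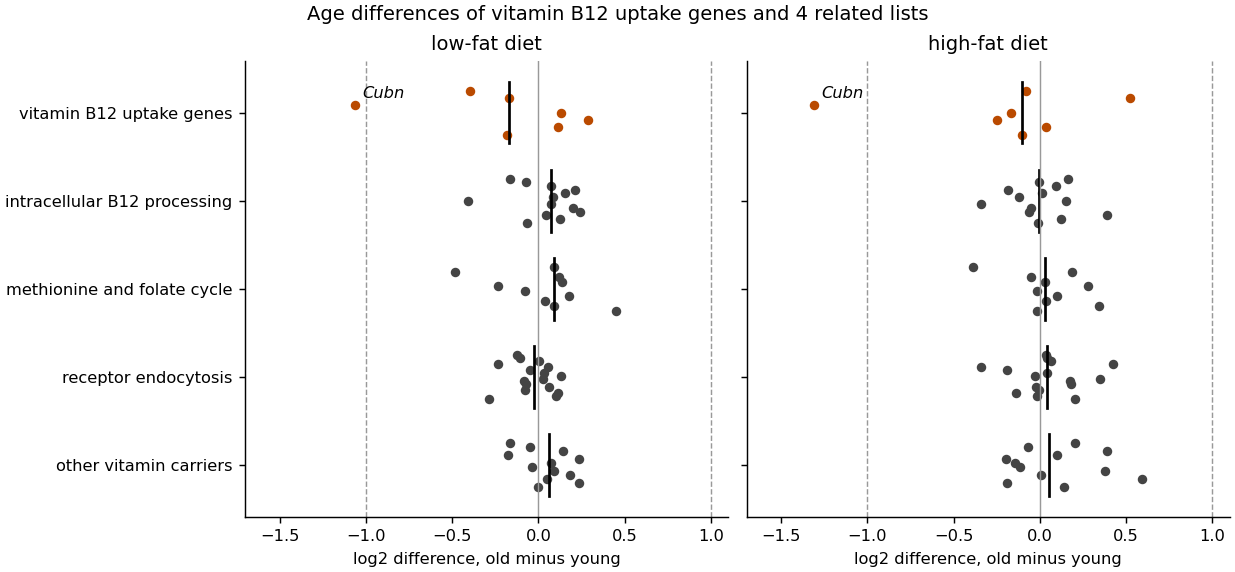
Log2 difference between old and young arrays (horizontal axis) on the low-fat (left) and high-fat (right) diet for genes above a signal of 50, 1 point per gene, with black bars for list medians and dashed lines at 2.0-fold. Cubn lies at -1.07 and -1.31, and the other points fall between -0.48 and 0.59.

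Genes whose pattern over the 4 arrays was nearest to that of Cubn, by the distance between centred log2 signals, were Nrn1 (0.21), Pex5l (0.41), Rps4l (0.43), Peg3 (0.47) and Gja1 (0.47). They belong to different families, among them a neuritin, a ribosomal protein and a gap junction protein. Nrn1 was 5.93 (low-fat) and 6.41 (high-fat) in young mice and 4.89 (low-fat) and 4.83 (high-fat) in old mice, the old values below a signal of 50. Pex5l (5.16 low-fat, 5.19 high-fat) and Peg3 (5.14 low-fat, 5.46 high-fat) were also below 50 on both old arrays. Nrn1, Pex5l and Peg3 thus passed the limit only through the young arrays. Rps4l was 7.61 (low-fat) and 7.48 (high-fat) in young mice and 6.49 (low-fat) and 6.58 (high-fat) in old mice. With 4 arrays and 12668 genes such likeness is a description. The 5 genes nearest to Amn, all within 0.03, were Ifnl2, Gm1070, Zfp423, C230062I16Rik and Asap3, where the median gene was at 0.35.

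Markers of cell types were set beside Cubn as summed linear signals, in which the brightest markers weigh most. Single colonocyte markers had age differences from -0.56 to 0.13 (low-fat) and from -0.18 to 0.67 (high-fat). Those of goblet cell markers ran from -0.39 to 0.01 (low-fat) and from -0.18 to 0.12 (high-fat). The summed linear signal of the 14 colonocyte markers was 85570 (low-fat) and 82440 (high-fat) in young mice and 79920 (low-fat) and 85740 (high-fat) in old mice, a range of 1.07-fold, and that of 6 goblet cell markers varied 1.06-fold. Smooth muscle markers, 8 of 8 above a signal of 50, summed to 1472, 3870, 1782 and 1468 in young mice (low-fat, high-fat) and old mice (low-fat, high-fat). The array with the highest smooth muscle signal was thus also that with the highest Cubn. On the low-fat diet the smooth muscle sum was higher on the old than on the young array, and Cubn was lower. Acta2, with the highest signal of these markers, weighs most in that sum and had an age difference of 0.46 there. Of the 8 markers, 4 were higher and 4 lower in old mice on that diet, with a median of 0.02. Adipocyte markers, 5 of 6 above 50, summed to 657, 407, 668 and 1360 in the same order.

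Since cubilin is known from the small intestine, 13 of its marker genes were examined as well, of which 11 were above a signal of 50. Their sum was 8455, 9956, 9707 and 9707 in young mice (low-fat, high-fat) and old mice (low-fat, high-fat), a range of 1.18-fold. On both diets 5 of the 11 were higher and 4 lower in old mice, where 60.7% of all genes had opposite signs on the diets. The fit, which called 0.395% of all genes for age, called 1 of the 11. This was Fabp6, the ileal bile acid binding protein, with age differences of 1.90 and 0.83 and a log2 change of 1.37 ± 0.23 (SE, adjusted p = 0.039, limma). Its adjusted p was 0.176 without a floor on signal, 0.0579 without the diet term and 0.0895 when the old low-fat array was left out as well, so the call rests on these choices. Apob, an apolipoprotein of lipid export, had age differences of 0.61 and 0.54, and Sis, sucrase-isomaltase, -0.20 and -0.83. Slc10a2, the ileal bile acid carrier, had -0.29 and -0.59. Lct (lactase) and Defa24, a Paneth cell defensin, were below 50 on each array, with highest signals of 35.5 and 9.71. Macrophage markers, 8 of 11 above 50, summed to 1489 (low-fat) and 1439 (high-fat) in young mice and 1662 (low-fat) and 1588 (high-fat) in old mice. Mertk, with the highest signal of these, weighs most in the sum and had age differences of -0.09 and -0.04. The other 7 were higher in old mice on both diets, beside the 60.7% of all genes with opposite signs, and 0 passed the fit. Medians over all 8 were 0.31 and 0.35, against 0.005 and 0.015 for all genes. C1qc, C1qb and Csf1r had the largest age differences of this list, 0.69 and 0.59, 0.81 and 0.39, and 0.76 and 0.41. Endothelial and fibroblast marker sums varied 1.21-fold and 1.20-fold. The part of any of these cell types in the Cubn values was not tested.

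**Figure D4:**
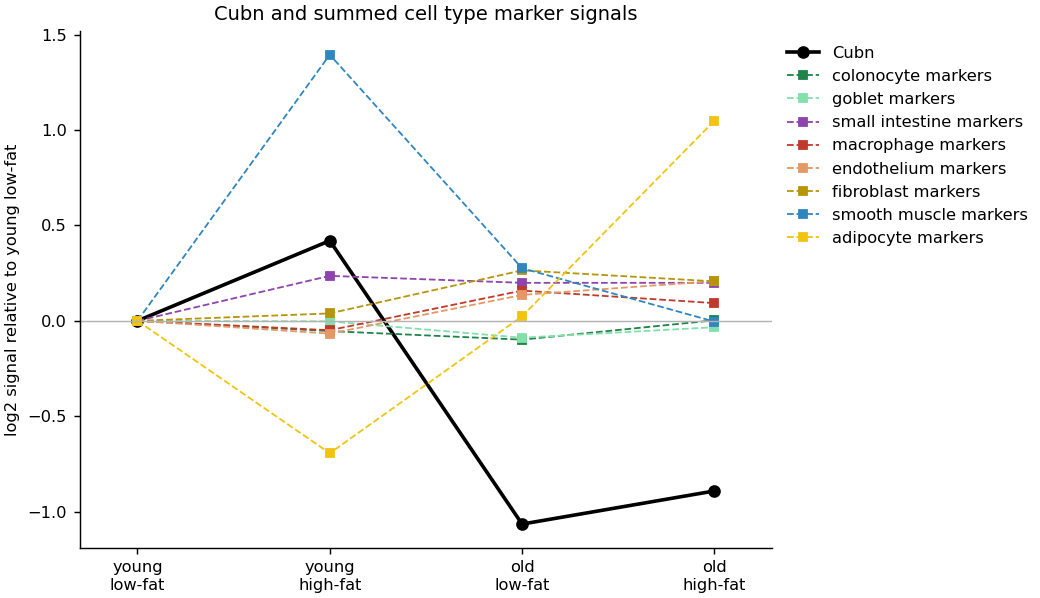
Log2 signal relative to the young low-fat array (vertical axis) on the 4 arrays for Cubn (black) and for the summed linear signals of 8 marker lists (coloured, dashed), 1 value per array without error. The colonocyte and goblet sums, in which the brightest markers weigh most, stay near 0 while Cubn is at -1.07 and -0.89 on the old arrays. The smooth muscle sum peaks on the young high-fat array and the adipocyte sum on the old high-fat array.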

How the data were processed

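RNA pools of 4 groups, grouped by the labels, were hybridized to 1 array each. The authors normalized the arrays with RMA and deposited the log2 signals (version and genome build not given in the sources used here). Of 35556 probe sets, 21789 had 1 gene in the platform annotation, 1621 had several and were not named, and 12146 had none. A RefSeq table of GRCm38.p6 held 21698 of the Entrez identifiers and lacked 91, and it changed no symbol. The probe set with the highest mean stood for each of 999 genes with several.

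As in the study, genes entered if any array had a linear signal above 50, and were counted past 2.0-fold. A list of pancreatic acinar genes (21 measured, 9 above 50) was removed in place of the atlas used by the study. These differences lack replicates and carry no p-value. The additive fit, not run by the study, used limma 3.58.1 in R 4.3.3 with Benjamini-Hochberg adjustment (p under 0.05). Its 1 residual degree of freedom is the age by diet contrast (prior 8.92), so its errors are not those of replicate pools. In simulated data with known changes its estimates were unbiased, but in most simulated sets more of its calls were false than the threshold allows. Its calls are therefore less firm than their adjusted p. Whether a prior estimated with 1 residual degree of freedom was the cause was not tested.

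The members and lists were chosen with earlier results of these data known. Genes named were the members, the 3 of each pathway list with the largest mean age difference, the 5 nearest patterns to Cubn and to Amn, Rplp0, and markers of cell types set beside a result. Mmut, Cblif, Lrpap1 and the choice among markers were added after their values were seen. Alternatives were other floors, fold thresholds and scalings, probe set means, crossed diets, other limma settings and fits without 1 array.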

Additional observations from a re-analysis of the deposited data

Results flagged for a closer look

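Age or diet differences of 4 members had opposite signs in the 2 groups they were measured in, which was the case for 60.7% (age) and 64.2% (diet) of all genes. None of these differences between groups was tested. For Cd320 the old minus young difference was -0.17 with low-fat and 0.52 with high-fat feeding, and the high-fat minus low-fat difference was -0.29 in young and 0.40 in old mice. For Mmachc the age differences were 0.29 and -0.25 and the diet differences 0.29 and -0.24. For Dab2 the age differences were 0.13 and -0.17 and the diet differences 0.29 and -0.01. For Amn the diet differences were -0.15 in young and 0.17 in old mice.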

How the results depend on the processing

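No member but Cubn passed 2.0-fold under any floor or scaling tried, with probe set means, with pancreatic genes kept, with crossed diets or at 3.0-fold. Cubn was lower in old mice under every alternative, from -1.49 to -0.995 for the old low-fat and from -1.60 to -0.89 for the old high-fat array. Its age change without 1 array ran from -1.40 to -0.98. The count of members past the fold threshold fell from 1 to 0 on the low-fat diet at 3.0-fold and when arrays were set to the colonocyte markers (Cubn at -0.995). On the high-fat diet it fell to 0 at 3.0-fold and with crossed diets (Cubn at -0.89). Set to Rplp0, the diet difference of Cubn in young mice was 0.74; this scaling moved the median of all genes by 0.32 there. Of 132 differences of the other members under alternatives, 113 moved by less than the error that the fit implies for a difference between 2 arrays. That error is larger than the SE given for the age change. Of the 19 that moved further, 12 came from Rplp0 scaling, which shifts all genes of an array alike. The sign was opposite for 18 of the 132, under Rplp0 scaling but also under other scalings, probe set means and crossed diets. Nothing about the members is read from these signs. For age, the fit called 50 genes, against 28 without a floor and 110 when set to the colonocyte markers. Without the diet term it called 60, and 46 to 88 when 1 array was left out as well (88 without the young low-fat array). For diet it called 0 genes, against 2 when set to Rplp0, 4 when set to the colonocyte markers and, without the age term, 0 with all arrays and 0 to 1 without 1 array (1 without the young low-fat array); the cause was not tested. Without an array, fits of 1 factor mix age and diet, and the diet change of Cubn then ran from -0.36 to 0.95. Dab2 has no fitted value with probe set means, since the mean is below 50. No paired analysis was possible because each group had 1 array. Dim signals limit Lrp2 and Dab2.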
